A study of Mus musculus with 6 samples.

Results

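The genes of the Myc family (*Myc*, *Mycn*, *Mycl*), 2 D-type cyclins (*Ccnd1*, *Ccnd2*), their kinase partners (*Cdk4*, *Cdk6*) and 3 CDK inhibitors (*Cdkn1a*, *Cdkn2a*, *Cdkn2b*) were examined in intestinal adenomas of *Apc* mutant mice. These 10 genes were taken by symbol from 34866 genes with estimated read counts in 6 RNA-seq libraries, and each of the 10 had enough counts to be among the 16536 genes tested. The libraries came from adenomas excised from the intestine of C57BL/6J mice aged 100 to 120 days, 3 from carriers of Apc1322T and 3 from carriers of ApcMin. Each carrier inherited 1 mutant and 1 wild-type copy of *Apc*. The ApcMin allele encodes a short truncated protein, whereas the longer product of Apc1322T retains part of its capacity to act on β-catenin. Both groups are therefore tumours of *Apc* mutant mice, and no normal mucosa or wild-type animal is among the 6 libraries. RNA of a library typically came from 1 mouse by the study's methods, whereas the labels give no animal, so that the p-values measure the spread between these libraries. Each library is of whole adenoma tissue with its stroma, so that fewer cells of a type and less RNA per cell cannot be told apart in any value below.

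Loss of *Apc* leaves β-catenin free to act with Tcf factors in the nucleus, where *Myc* and *Ccnd1* are classical targets in the intestinal crypt. The Myc proteins pair with Max and bind the E-box, and raise the transcription of genes for ribosome production and growth. D cyclins activate Cdk4 and Cdk6, which phosphorylate the retinoblastoma protein and so release E2F factors for entry into S phase. The products of *Cdkn2a* and *Cdkn2b* hold back Cdk4 and Cdk6, and p21, the product of *Cdkn1a*, restrains cyclin-CDK complexes more broadly. *Cdkn2a* also encodes p19Arf, which protects p53 by binding Mdm2.

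The libraries held between 23132461 and 33518324 estimated counts. In them, 3 counts corresponded to 0.0895 to 0.130 CPM (counts for each 1000000 of a library) before scaling, a limit that covers counting error only. The CPM values of genes were scaled by TMM, whereas this limit and that of the filter were not. Genotypes were tested across all genes by the quasi-likelihood method of edgeR, with p adjusted after Benjamini-Hochberg and called under 0.01. No gene passed (0 of 16536, 0.0%), whereas 2495 genes (15.1%) had an unadjusted p under 0.05, and DESeq2 called 194 of 17346 genes (1.12%) at the adjusted threshold. Of the 10 genes, 0 passed the adjusted threshold with edgeR and 0 with DESeq2. An unadjusted p under 0.05 was found for 3 of the 10, of which *Mycl* and *Cdkn2a* were higher in ApcMin (1239 of all genes, 7.49%, in this direction) and *Ccnd2* was lower (1256 of all genes, 7.6%). The same 3 genes had libraries that did not overlap between the genotypes, a pattern shown by 11.0% of all genes in the higher direction and by 9.96% in the lower. For *Cdkn2a* the nearest libraries of the genotypes were closer than 3 counts, so that their order is not reliable. *Cdkn2a* exceeded the filter's limit of 0.386 CPM in 3 of 3 ApcMin libraries and in only 1 of 3 Apc1322T libraries, so that it was tested because of the group in which it was high, and its place in these counts is not support for a difference. The fitted value was higher in ApcMin for 6 of the 10 genes and lower for 4, with a median log2 fold change of 0.08 beside 0.02 for all genes tested. An exact permutation test over the 20 assignments of 3 against 3 libraries can give no p under 0.10. All log2 fold changes are of ApcMin over Apc1322T.

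**Figure D1:**
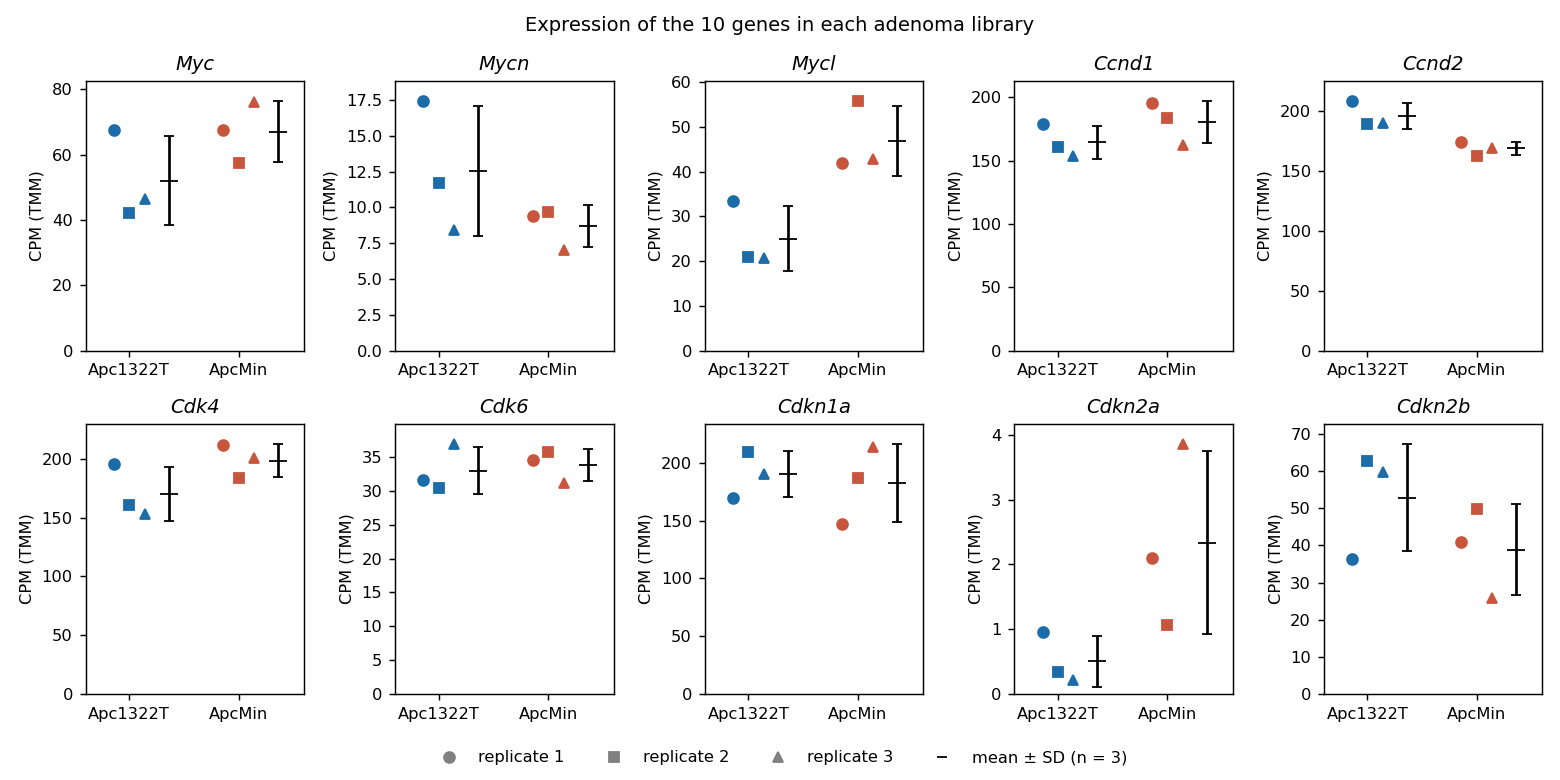
CPM (TMM) of each of the 10 genes on the y axis, from 0, for the 3 Apc1322T and 3 ApcMin libraries, with the replicate number as the marker shape and the mean ± SD beside each group. The groups stand apart for *Mycl* and *Ccnd2* and overlap for 7 genes. For *Cdkn2a* they do not overlap, but its nearest libraries are closer than 3 counts.

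Levels of different genes were compared as CPM per kb of annotated exon. *Cdk4* was the highest, with a mean of 56.8 over the 6 libraries (47.2 to 65.1), followed by *Cdkn1a* with 52.5 (41.4 to 60.2). *Ccnd1* had a mean of 36.6 (32.7 to 41.5) and *Cdkn2b* one of 33.0 (18.5 to 45.1). The kinase Cdk4, cyclin D1 and the inhibitors p21 and p15Ink4b thus had the highest transcript levels of the 10. *Myc* followed with 21.9 CPM per kb (15.5 to 28.0) and *Ccnd2* with 19.4 (17.3 to 22.2). *Mycl* had a mean of 8.88 (5.13 to 13.8), *Mycn* of 3.22 (2.14 to 5.29) and *Cdk6* of 2.39 (2.18 to 2.64). *Cdkn2a* was the lowest, with a mean of 1.21 (0.19 to 3.29). Neighbours in this order had overlapping ranges, except *Ccnd2* and *Mycl*, which did not overlap. With the longest coding transcript as the length, *Ccnd2* (28.8) and *Myc* (25.5) changed places. The means of *Cdk4* (89.8), *Cdkn1a* (89.6), *Ccnd1* (46.1), *Ccnd2* and *Cdk6* (2.90) then moved by more than their SD over the libraries, and those of the other members did not.

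**Figure D2:**
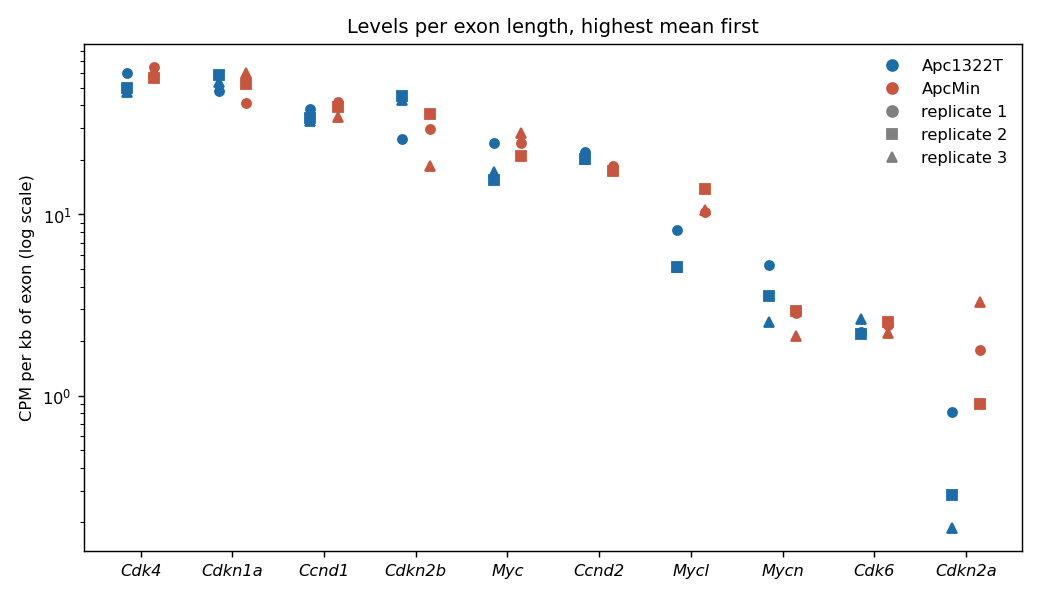
CPM per kb of exon on a log axis for the 10 genes, ordered by their mean over 6 libraries, with 1 point per library, genotype by colour and replicate by shape. *Cdk4* has the highest mean and *Cdkn2a* the lowest, and *Cdkn2a* spreads from 0.19 to 3.29.

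*Myc*, the broadly expressed member of its family and the one named most often as a driver of Wnt-dependent tumours, lies on chromosome 15 (GRCm38, chr15:61985391-61990374, plus strand). It stood at 67.5, 42.2 and 46.5 CPM in Apc1322T replicates 1 to 3 and at 67.7, 57.3 and 76.1 CPM in ApcMin replicates 1 to 3. Apc1322T replicate 1 was level with ApcMin replicate 1 and above ApcMin replicate 2, so that the groups overlapped. The means were 52.1 ± 13.5 and 67.0 ± 9.40 CPM (SD, n = 3 each), and the log2 fold change was 0.36 (SE 0.20, edgeR adjusted p = 0.412, DESeq2 adjusted p = 0.460). Without Apc1322T replicate 1 it was 0.60 (edgeR adjusted p = 0.075), and it was 0.23 without Apc1322T replicate 2.

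*Mycl*, which encodes L-Myc, is on chromosome 4 (chr4:122995652-123002485, plus strand). Its 3 Apc1322T libraries stood at 33.3, 20.8 and 20.7 CPM, and its 3 ApcMin libraries at 41.8, 55.7 and 42.8 CPM. Every ApcMin library exceeded every Apc1322T library, and Apc1322T replicate 1 again lay nearest to the other genotype. The means were 25.0 ± 7.27 and 46.8 ± 7.78 CPM (SD, n = 3 each), a 1.87-fold difference (log2 0.90, SE 0.22, edgeR unadjusted p = 0.0056, adjusted p = 0.263, exact permutation p = 0.10). The adjusted p was 0.019 with DESeq2 and ranged from 0.046 to 0.692 in edgeR as each library was left out, the lowest without Apc1322T replicate 1, where the log2 fold change was 1.18. Among all 16536 genes, *Mycl* ranked 346 by p.

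*Mycn*, which encodes N-Myc and is known best from embryonic and neural tissue, lies on chromosome 12 (chr12:12936093-12941914, minus strand). It ran the other way, with 17.4, 11.7 and 8.45 CPM in Apc1322T and 9.38, 9.71 and 7.05 CPM in ApcMin. The spread among Apc1322T libraries was larger than the difference between the genotypes, and the groups overlapped. On the log2 scale the difference was -0.52 (SE 0.28, edgeR adjusted p = 0.407). Without Apc1322T replicate 1, the highest library, it was -0.20.

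Within each library, the Myc family was dominated by *Myc*, which made up 64.7%, 64.1% and 69.0% of the summed CPM per kb of the family in Apc1322T and 65.4%, 55.7% and 68.7% in ApcMin (exact permutation p = 0.80). The shares of the other members did not overlap between the genotypes. *Mycl* held 21.5%, 21.3% and 20.7% in Apc1322T against 27.2%, 36.5% and 26.0% in ApcMin, and *Mycn* held 13.8%, 14.6% and 10.3% against 7.47%, 7.79% and 5.25% (exact permutation p = 0.10 for each, the smallest possible). The ratio of *Mycl* to *Mycn*, which does not depend on the scaling of a library, was 1.56, 1.45 and 2.00 in Apc1322T and 3.64, 4.68 and 4.95 in ApcMin. Its means were 1.67 ± 0.290 and 4.42 ± 0.697 (SD, n = 3 each), a log2 difference of 1.41 (exact permutation p = 0.10, 0.15 after Benjamini-Hochberg adjustment over the 6 ratios computed). The ratios were chosen after the values of the genes had been seen. The shares and this ratio use the same values of *Mycl*, which already did not overlap. Their separation is thus not further support for a difference.

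**Figure D3:**
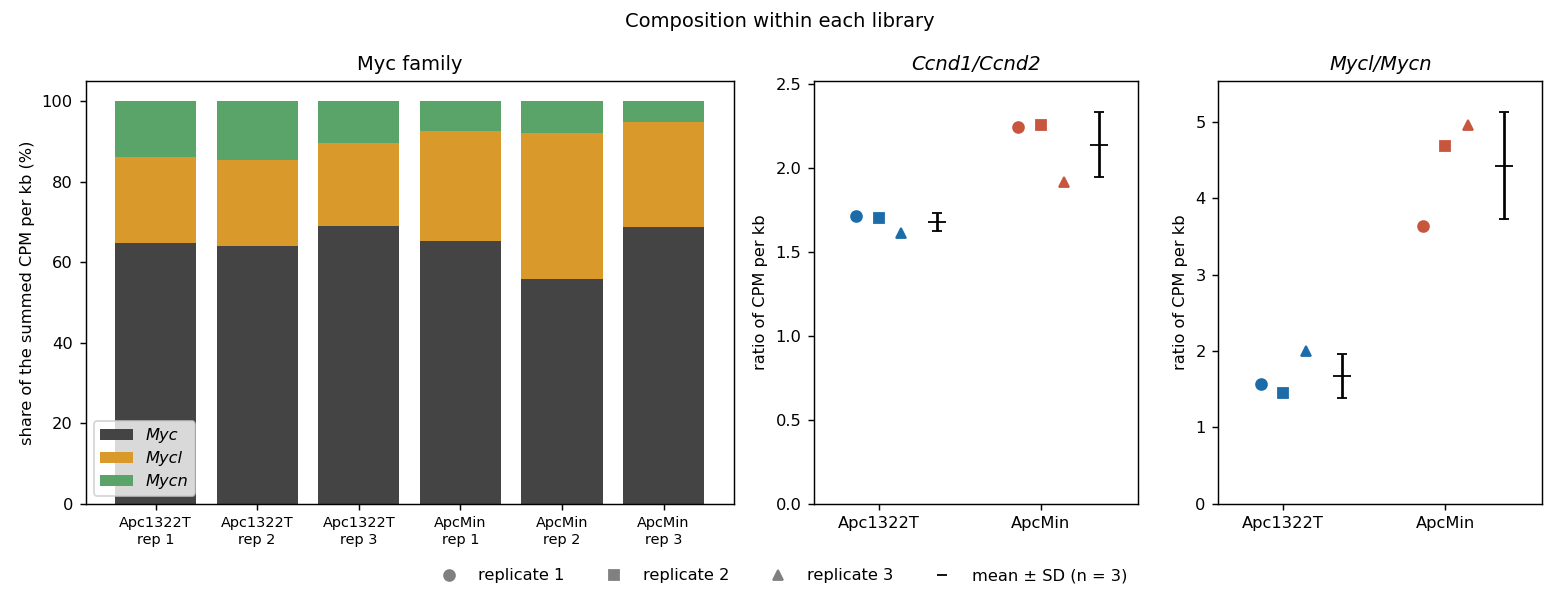
Left, the share of *Myc*, *Mycl* and *Mycn* in the summed CPM per kb of the family (%) in each library, and right, the ratios *Ccnd1*/*Ccnd2* and *Mycl*/*Mycn* of CPM per kb per library, with the mean ± SD (n = 3) and the replicate as the marker shape. *Mycn* takes 10.3% to 14.6% in Apc1322T and 5.25% to 7.79% in ApcMin, and neither ratio overlaps between the genotypes.

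Among the D cyclins, *Ccnd1*, which encodes cyclin D1, lies on chromosome 7 (chr7:144929931-144939925, minus strand). It stood at 178.8, 161.0 and 153.9 CPM in Apc1322T and at 195.4, 183.5 and 162.5 CPM in ApcMin. The groups overlapped, since ApcMin replicate 3 was below Apc1322T replicate 1. The fold change on the log2 scale was 0.13 (SE 0.11, edgeR adjusted p = 0.547), and it ranged from 0.071 to 0.20 as each library was left out.

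*Ccnd2*, the gene for cyclin D2, is on chromosome 6 (chr6:127125162-127152193, minus strand). It stood at 208.4, 189.3 and 190.5 CPM in Apc1322T and at 174.1, 162.7 and 169.6 CPM in ApcMin. Every ApcMin library was below every Apc1322T library. The means were 196.1 ± 10.7 and 168.8 ± 5.76 CPM (SD, n = 3 each), a small difference of 1.16-fold with a narrow spread (log2 -0.22, SE 0.082, edgeR unadjusted p = 0.035, adjusted p = 0.312, exact permutation p = 0.10). The value ranged from -0.24 to -0.16 as each library was left out.

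The fitted values of *Ccnd1* and *Ccnd2* had opposite signs. The ratio of *Ccnd1* to *Ccnd2*, as CPM per kb, was 1.71, 1.70 and 1.61 in Apc1322T and 2.24, 2.25 and 1.91 in ApcMin, so that no ApcMin library fell within the range of Apc1322T. Its means were 1.68 ± 0.054 and 2.14 ± 0.193 (SD, n = 3 each), a log2 difference of 0.35 (exact permutation p = 0.10, adjusted over 6 ratios 0.15). *Ccnd2* alone already did not overlap, so that the separation of this ratio is not further support for a difference. The third D cyclin, *Ccnd3*, stood at 59.6, 65.1 and 56.1 CPM in Apc1322T and at 67.1, 47.8 and 54.0 CPM in ApcMin, and its groups overlapped.

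*Cdk4* lies on chromosome 10 (chr10:127063534-127067920, plus strand). Its levels were 196.1, 161.1 and 153.4 CPM in Apc1322T and 211.4, 183.8 and 200.6 CPM in ApcMin. As with *Myc*, Apc1322T replicate 1 lay within the range of ApcMin, and the other Apc1322T libraries lay below it. The log2 fold change was 0.22 (SE 0.12, edgeR adjusted p = 0.404), and 0.34 without Apc1322T replicate 1. Of pairs among the 10 genes, *Ccnd1* and *Cdk4* had the smallest root mean square difference in centred log2 CPM over the 6 libraries, 0.11. That of *Myc* and *Cdk4* was 0.16. The genes' own spreads on this measure were 0.12 for *Ccnd1*, 0.17 for *Cdk4* and 0.31 for *Myc*. The measure favours genes that vary little, so that these differences do not show close co-variation.

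The *Cdk4* promoter is shown because it was rich in the E-box CACGTG, the site that Myc proteins bind with Max. The sequence comprises the 250 bases before the RefSeq start on GRCm38.p6 (chr10:127063285-127063534, plus strand), with the E-boxes in capitals.
Cdk4 promoter: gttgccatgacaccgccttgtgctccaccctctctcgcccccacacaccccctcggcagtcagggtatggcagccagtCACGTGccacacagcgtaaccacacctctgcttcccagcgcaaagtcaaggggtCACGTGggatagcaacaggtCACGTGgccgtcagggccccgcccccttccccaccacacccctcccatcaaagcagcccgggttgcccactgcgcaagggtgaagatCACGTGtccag
It held 4 E-boxes, which began 172, 118, 98 and 11 bases before the start. An E-box was found in 1978 of 32851 promoters of the same length (6.02%), and 4 or more in 7 of them (0.0213%). The motif is its own reverse complement, so that both strands were covered. Of the 10 genes, 7 had a RefSeq promoter, with 9 promoters in all. *Myc*, *Ccnd1* and *Ccnd2* had none, so that they were not searched for any motif. Of the 9 promoters, 2 held an E-box, those of *Cdk4* and *Cdk6*. *Cdk6* held 1 E-box, 220 bases before its start. The Tcf motif CTTTGA, searched on both strands, was found for *Cdk4* and *Mycn* (2 of the 9 promoters) and in 13.8% of all promoters. These are matches of letters, and no binding was measured.

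*Cdk6*, the alternative partner of the D cyclins, is on chromosome 5 (chr5:3341485-3531008, plus strand). It stood at 31.6, 30.5 and 36.9 CPM in Apc1322T and at 34.6, 35.7 and 31.1 CPM in ApcMin. The libraries of both genotypes were interleaved. The log2 fold change was 0.035 (SE 0.11, edgeR adjusted p = 0.894), and its sign turned when Apc1322T replicate 2 (-0.018) or ApcMin replicate 2 (-0.0070) was left out. Per kb of exon, *Cdk4* exceeded *Cdk6* by 22.5 ± 4.43 times in Apc1322T and by 25.4 ± 2.89 times in ApcMin (SD, n = 3 each, exact permutation p = 0.50). The size of this excess depends on the length used, and it was larger with the longest coding transcript.

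**Figure D4:**
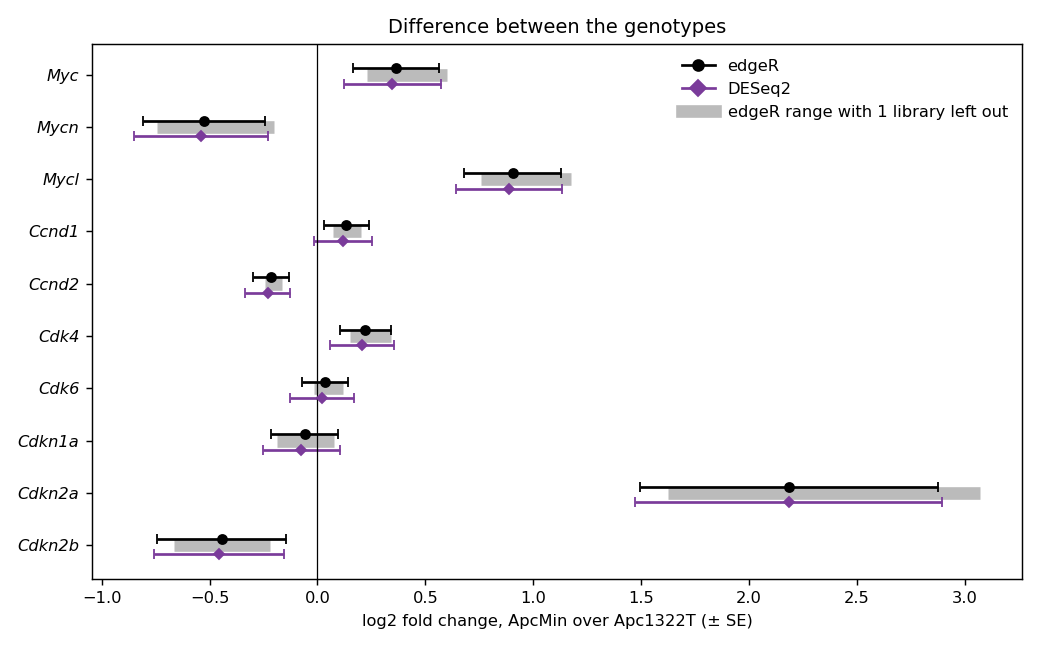
Log2 fold change of ApcMin over Apc1322T on the x axis for the 10 genes, as points with ± SE from edgeR (black) and DESeq2 (purple), with grey bars for the range of the edgeR value as each of the 6 libraries is left out. The grey bars cross 0 for *Cdk6* and *Cdkn1a*, and *Cdkn2a* has the widest, from 1.63 to 3.07.

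Among the inhibitors, *Cdkn1a*, the p53 target that encodes p21, lies on chromosome 17 (chr17:29090976-29100727, plus strand). It stood at 170.0, 209.9 and 190.4 CPM in Apc1322T and at 147.1, 186.7 and 214.0 CPM in ApcMin. ApcMin libraries held both the lowest and the highest value. The log2 fold change was -0.058 (SE 0.16, edgeR adjusted p = 0.872), and it turned to 0.017 without Apc1322T replicate 2 and to 0.075 without ApcMin replicate 1.

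*Cdkn2a* and *Cdkn2b* lie side by side on chromosome 4, on the minus strand (chr4:89274471-89294653 and chr4:89306299-89311039). *Cdkn2a* gives rise to unrelated proteins from alternative first exons that are joined to a shared second exon in different reading frames. The coding part of each first exon is shown in lower case, followed in capitals by the first 30 bases of the shared exon, to show what the deposited counts could not separate.
p16Ink4a transcript: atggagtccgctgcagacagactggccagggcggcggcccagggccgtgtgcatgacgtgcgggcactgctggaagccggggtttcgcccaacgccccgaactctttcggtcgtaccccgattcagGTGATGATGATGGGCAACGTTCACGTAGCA
p19Arf transcript: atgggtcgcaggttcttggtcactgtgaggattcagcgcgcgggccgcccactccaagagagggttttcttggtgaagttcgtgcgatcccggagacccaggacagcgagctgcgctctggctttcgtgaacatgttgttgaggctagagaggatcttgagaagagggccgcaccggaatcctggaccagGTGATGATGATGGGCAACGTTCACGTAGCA
The first exon contributed 126 coding bases to p16Ink4a (chr4:89281986-89282111, GRCm38), a whole number of codons, and 190 to p19Arf (chr4:89294334-89294523), which leaves 1 base over. From this base onwards the shared exon is read in another frame. The deposited counts are per gene, so that the values that follow are of both transcripts together.

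*Cdkn2a* stood at 0.954, 0.333 and 0.219 CPM in Apc1322T, from 26, 7 and 5 counts, and at 2.09, 1.06 and 3.86 CPM in ApcMin, from 75, 27 and 122 counts. Every ApcMin library exceeded every Apc1322T library. However, ApcMin replicate 2 (27 counts) and Apc1322T replicate 1 (26 counts) were closer than 3 counts, so that their order is not reliable. The means were 0.502 ± 0.396 and 2.34 ± 1.41 CPM (SD, n = 3 each), a fitted difference of 4.55-fold (log2 2.19, SE 0.69, edgeR unadjusted p = 0.017, adjusted p = 0.286, exact permutation p = 0.10, DESeq2 adjusted p = 0.064). The log2 fold change was 3.07 without Apc1322T replicate 1 (edgeR adjusted p = 0.079) and 1.63 without ApcMin replicate 3.

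*Cdkn2b*, the gene for p15Ink4b and a classical target of TGF-β, stood at 36.4, 62.6 and 59.7 CPM in Apc1322T and at 41.1, 49.9 and 25.8 CPM in ApcMin. The groups overlapped, with ApcMin replicate 3 the lowest and Apc1322T replicate 1 the next. Its log2 fold change was -0.44 (SE 0.30, edgeR adjusted p = 0.491), and it was -0.22 without ApcMin replicate 3 and -0.66 without ApcMin replicate 2. Neighbouring *Cdkn2a* and *Cdkn2b* were ordered broadly in reverse over the libraries. ApcMin replicate 3 was the highest in *Cdkn2a* and the lowest in *Cdkn2b*, and Apc1322T replicates 2 and 3 were the lowest in *Cdkn2a* and the highest in *Cdkn2b*.

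The other D cyclin and CDK inhibitor genes comprised 5 genes, each tested, with 3 higher and 2 lower in ApcMin, with a median log2 fold change of 0.05. *Cdkn2c*, which encodes the Cdk4 and Cdk6 inhibitor p18Ink4c, stood at 14.6, 14.97 and 14.6 CPM in Apc1322T and at 12.3, 11.0 and 12.4 CPM in ApcMin. These libraries did not overlap (log2 -0.30, SE 0.11, edgeR unadjusted p = 0.032, adjusted p = 0.311). In the lower direction this held for 1 of the 5 genes, beside 9.96% of all genes. The highest fold change was that of *Cdkn1c*, the gene for p57Kip2, at 0.26 (edgeR adjusted p = 0.565).

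Of 16 genes listed as partners, antagonists and regulators of Myc, 14 were tested, 8 of them higher and 6 lower, with a median of 0.04. Their values were spread more widely below 0 than above it, from -0.72 for *Mxd1*, a repressor that competes with Myc for Max, to 0.20 for *Mga*. *Mxd1* stood at 229.5, 502.0 and 558.4 CPM in Apc1322T and at 257.2, 374.4 and 154.1 CPM in ApcMin, with overlap between the groups (edgeR adjusted p = 0.448). *Max* stood at 120.9, 214.0 and 227.8 CPM in Apc1322T and at 124.0, 141.9 and 86.7 CPM in ApcMin (log2 -0.67, edgeR adjusted p = 0.337). Its order over the 6 libraries was the same as that of *Mxd1*. *Mxi1*, another Max-binding antagonist of Myc, stood at 71.4, 97.5 and 108.5 CPM against 67.3, 66.7 and 58.1 CPM, and did not overlap (log2 -0.53, edgeR unadjusted p = 0.015, adjusted p = 0.285). *Max* and *Mxi1* are named here after their values were seen. Of the 14 genes, 1 did not overlap in the lower direction, beside 9.96% of all genes. In the higher direction it was 1, *Zbtb17*, beside 11.0%. Other genes of the list did not follow, with 0.056 for *Mnt*, 0.12 for *Mxd4* and -0.011 for *Mxd3*, whereas *Mlx* was lower (-0.28). In Apc1322T replicates 2 and 3, *Myc* was thus at its lowest and *Max* and *Mxd1* at their highest, whereas ApcMin replicate 3 had the reverse. This order was picked out after the values were seen and was not tested.

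Genes that Myc activates were represented by 22 genes, of which 16 were higher and 6 lower in ApcMin, with a median of 0.07. An unadjusted p under 0.05 was found for 3 in the higher direction and 1 in the lower, or 4 of 22 beside 15.1% of all genes, a share near that background. The highest was *Gnl3*, the gene for nucleostemin, at 57.4, 47.6 and 44.2 CPM in Apc1322T and 58.9, 60.1 and 71.9 CPM in ApcMin (log2 0.36, edgeR unadjusted p = 0.033, adjusted p = 0.311). The lowest was *Ldha*, the gene for a lactate dehydrogenase subunit, with a log2 fold change of -0.28 (edgeR unadjusted p = 0.042, adjusted p = 0.317).

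Downstream of the D cyclins, the 16 genes of the Rb and E2F families and of cyclin E with Cdk2 divided into 9 higher and 7 lower, with a median of 0.01 and values from -0.20 (*Rbl2*) to 0.12 (*Ccne1*). An unadjusted p under 0.05 was reached by 0 of these 16 genes with edgeR. The 19 proliferation genes had a median of -0.04, with 6 higher and 13 lower and values from -0.19 (*Aurka*) to 0.27 (*Rrm2*), and 0 of them had an unadjusted p under 0.05. Among 16 genes of p53 and its targets, 11 were higher and 5 lower, with a median of 0.05. An unadjusted p under 0.05 was found for 1 of the 16, beside 15.1% of all genes. This was *Phlda3*, named after its values were seen, at 19.6, 19.9 and 17.2 CPM in Apc1322T and 27.9, 24.1 and 29.8 CPM in ApcMin (log2 0.53, SE 0.12, edgeR unadjusted p = 0.0033, adjusted p = 0.257). The groups did not overlap for 2 of the 16, *Phlda3* and *Eda2r*, beside 11.0% of all genes in the higher direction. For *Eda2r* the nearest libraries, Apc1322T replicate 2 (1.05 CPM) and ApcMin replicate 2 (1.06 CPM), were closer than 3 counts, so that their order is not reliable. The 16 genes ranged from -0.59 for *Fas*, a death receptor gene, to 0.86 for *Eda2r*, which stood at only 0.954 to 1.05 CPM in Apc1322T and 1.06 to 2.40 CPM in ApcMin. In all of these lists, 0 genes had an edgeR adjusted p under 0.01.

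The genes most like each member over the 6 libraries were found by the root mean square difference of centred log2 CPM, among genes with a mean log2 CPM of at least 3. For *Myc* these were *Runx1* and *Prmt1*, with differences of 0.040 and 0.043 beside a spread of 0.31 for *Myc* itself. For *Mycl* they were *Podxl* (0.11) and *Slco5a1* (0.15), beside a spread of 0.53. *Rbp4* (0.096) and *Otop2* (0.17) were nearest to *Mycn*. The nearest to *Cdk4* were *Parp1* (0.023) and *Ftsj3* (0.024), to *Ccnd1* were *Plscr3* (0.027) and *Rnf145* (0.031), and to *Ccnd2* were *Tm9sf3* (0.028) and *Slmap* (0.030). *Rbl1*, which encodes the Rb relative p107, was nearest to *Cdk6* (0.026), followed by *Anln* (0.032), beside a spread of only 0.10. *Cdkn1a* was nearest to *Gm2962* (0.048) and *Blcap* (0.050), and *Cdkn2b* to *Fam213b* (0.052) and *Osbpl6* (0.060). *A2m* (0.25) and *Dmkn* (0.45) were nearest to *Cdkn2a*, which itself had a spread of 1.29. The spreads were 0.41 for *Mycn*, 0.12 for *Ccnd2*, 0.18 for *Cdkn1a* and 0.44 for *Cdkn2b*. The measure favours genes that vary little, and each nearest gene was picked from many, so that no link to a member is shown.

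Markers of the cell types in the tissue varied over the libraries together with some of these genes. The 7 epithelial markers, which include *Epcam* and *Krt8*, summed to 11201 to 13126 CPM in Apc1322T and to 9191 to 10627 CPM in ApcMin, without overlap, and 7 of 7 were lower in ApcMin (from -0.60 for *Vil1* to -0.077 for *Krt18*). The 7 enterocyte markers summed to 9058, 16756 and 17179 CPM in Apc1322T and to 6748, 12040 and 6531 CPM in ApcMin, and 7 of 7 were lower in ApcMin (from -2.24 for *Lct* to -0.34 for *Sis*). Apc1322T replicates 2 and 3 thus had the highest sums of enterocyte markers, together with the lowest *Myc*, *Mycl* and *Cdk4* and the highest *Cdkn2b*, *Mxd1* and *Max*. ApcMin replicate 3 had the lowest sum, together with the highest *Myc* and *Cdkn2a* and the lowest *Cdkn2b*, *Mxd1* and *Max*. The single markers did not all follow this order. In ApcMin replicate 3, *Apoa1*, *Fabp2*, *Lct* and *Sis* were at their lowest. *Alpi* stood at 2228 CPM there, beside 1136 and 785 CPM in ApcMin replicates 1 and 2. *Krt20* and *Fabp1* were lower in ApcMin replicate 1 (1116 and 280 CPM) than in ApcMin replicate 3 (1430 and 336 CPM). These markers are named after their values were seen. The part of these markers in the results was not tested.

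Stromal and squamous markers were higher in ApcMin. The 6 smooth muscle markers summed to 126.9 to 255.2 CPM in Apc1322T and 276.3 to 401.9 CPM in ApcMin (6 of 6 higher, from 0.48 for *Des* to 0.88 for *Myh11*), and the 6 fibroblast markers to 603.8 to 1523 and 982.5 to 3304 CPM (6 of 6 higher, from 0.72 for *Dcn* to 1.57 for *Lum*). The squamous markers, of which 6 of 8 were tested and 6 were higher (from 0.68 for *Ivl* to 3.41 for *Krt6a*), summed to 8.36 to 10.4 CPM in Apc1322T and to 36.8 to 50.5 CPM in ApcMin. One of the 6, *Lor*, exceeded the filter's limit in 3 ApcMin libraries and 1 Apc1322T library, so that it was tested because of the group in which it was high. Among the squamous markers *Krt14* had an edgeR adjusted p of 0.048 (log2 2.51, SE 0.18). *Mycl*, the sums of smooth muscle and squamous markers and, by less than 3 counts between its nearest libraries, *Cdkn2a* were thus higher in the 3 ApcMin libraries. *Ccnd2* and the sum of epithelial markers were lower in them. Values that do not overlap between the genotypes coincide in this way by construction, so that this shows no link between them. Taken singly, 2 of 6 smooth muscle, 2 of 6 fibroblast, 1 of 5 endothelial and 4 of 6 squamous markers were higher in ApcMin without overlap. This was beside 11.0% of all genes. The 4 squamous markers include *Lor*, whose place in this count is not support for a difference. In the lower direction, 4 of 7 epithelial markers did not overlap, beside 9.96% of all genes. Endothelial markers (5 of 5 higher, from 0.15 for *Kdr* to 1.38 for *Cdh5*) summed to 106.0 to 170.8 CPM and 156.3 to 222.4 CPM. Leukocyte markers (5 higher and 1 lower of 6 tested, from -0.26 for *Cd3e* to 1.21 for *Lyz2*) summed to 75.0 to 93.4 CPM and 86.7 to 320.9 CPM, the highest in ApcMin replicate 1. Dendritic cell markers (4 higher and 2 lower of 6, from -0.045 for *Batf3* to 0.60 for *Xcr1*) summed to 11.6 to 16.2 CPM and 14.95 to 18.7 CPM. Of the distal ileum markers, 4 of 6 were higher and 2 lower, from -0.027 for *Slc51b* to 6.95 for *Fabp6*, which stood at 127.4, 82.8 and 0.980 CPM in ApcMin replicates 1 to 3 and at most 0.618 CPM in Apc1322T. Enteroendocrine markers (3 higher and 3 lower of 6, from -0.45 for *Cck* to 0.60 for *Neurod1*) had sums that overlapped between the genotypes. *Xcr1* exceeded the filter's limit in 1 of 3 Apc1322T libraries, *Clec9a* and *Neurod1* did so in 2 of 3, and each did so in 3 of 3 ApcMin libraries, so that the ApcMin libraries were needed for these genes to be tested. No marker was at 0 in all libraries. Whether these cells or the site of the adenomas have a part in the values of *Mycl*, *Cdkn2a* and *Ccnd2* was not tested.

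**Figure D5:**
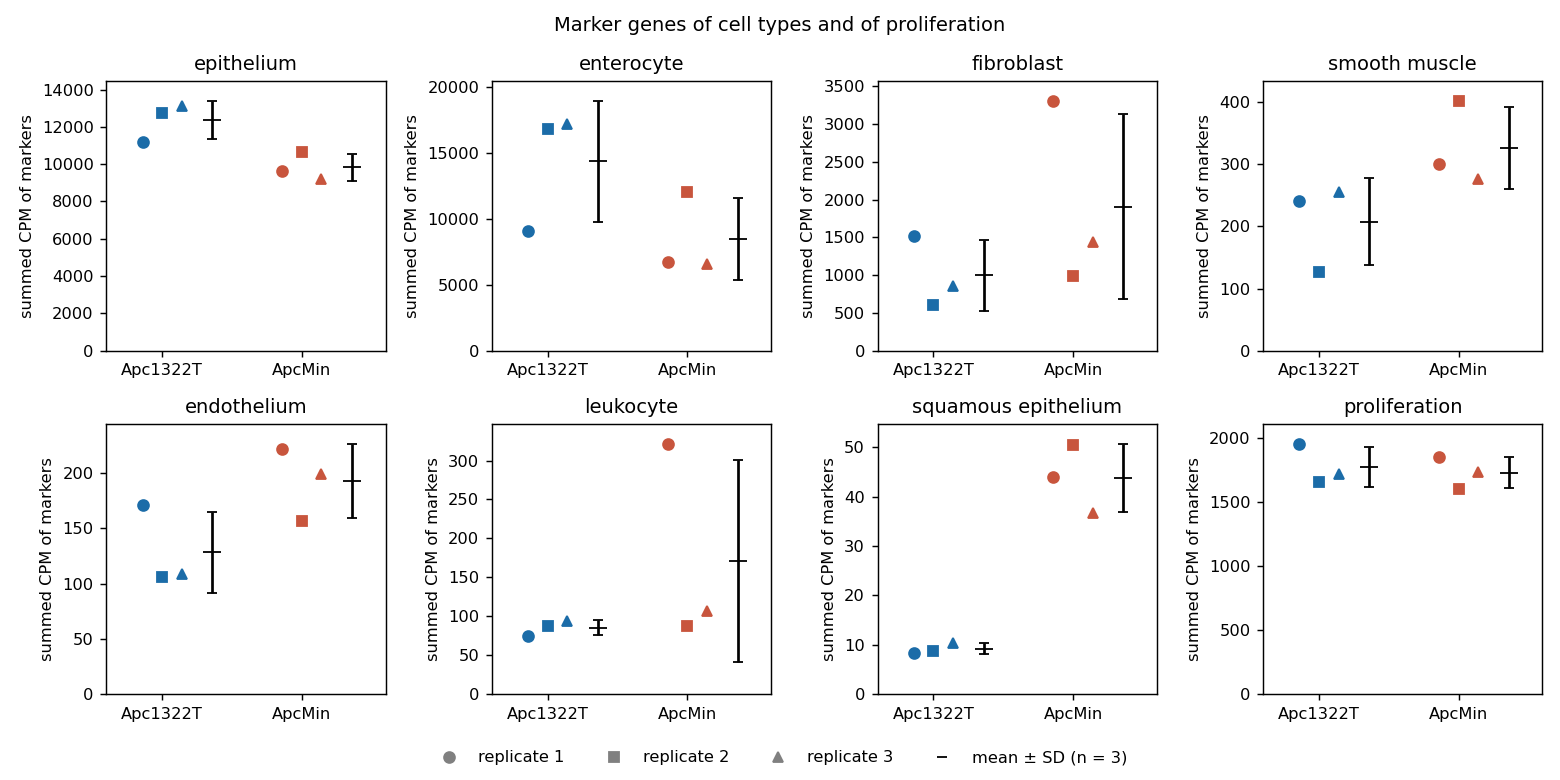
Summed CPM of marker genes on the y axis, from 0, for epithelium, enterocyte, fibroblast, smooth muscle, endothelium, leukocyte and squamous epithelium lists and the proliferation genes, with 1 point per library, the replicate as the marker shape and the mean ± SD (n = 3) beside each genotype. Epithelial sums are lower and smooth muscle and squamous sums higher in all 3 ApcMin libraries, and the proliferation sums overlap.

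Exons of *Ccnd1* overlap those of *LTO1*, and exons of *Cdk4* those of *Tspan31*, each on the opposite strand. The kit kept the strand, whereas the strand setting of the read assignment is not given in the sources used here. *Tspan31* stood at 57.7 to 79.2 CPM and *LTO1* at 15.05 to 19.7 CPM, each below its overlapping partner in every library.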

How the data were processed

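Adenoma RNA of 3 Apc1322T and 3 ApcMin libraries was sequenced on 1 lane as single-end reads of 50 bases from a strand-specific kit. Salmon was used by the authors to assign the reads to transcripts of GRCm38, and the values they deposited are estimated counts by gene, not normalised for library size or gene length. Groups and replicate numbers were taken from the sample labels, and 34582 of 34866 identifiers were matched to symbols in GENCODE M21.

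For each gene the estimated count was rounded, and filterByExpr with a minimum count of 10 and a minimum total of 15 kept 16536 genes. After TMM scaling, the genotypes were compared in edgeR 4.0.16 (R 4.3.3) by its quasi-likelihood test with robust estimation, with Benjamini-Hochberg adjustment over all genes tested. The SE is the size of the log2 fold change divided by the square root of its F, and log2 CPM used a prior count of 2. Levels per kb used the union of annotated exons, and sequences came from RefSeq (GRCm38.p6) and the GENCODE coordinates. Single values were compared by exact two-sided permutation of the 6 libraries. DESeq2 1.42.0, limma-voom (limma 3.58.1), DESeq2's size factors, no filter, no robust estimation, a threshold of 0.05, the replicate number as a block, and each library left out in turn were tried as alternatives. The longest coding transcript as the length was added after the data had been seen. Only the edgeR fit was tested on simulated counts, with known changes placed in well-expressed genes.

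The 10 genes and the gene lists were chosen with earlier results of these data known, the lists from general knowledge. Named genes are the 10, the lowest and highest of each list by log2 fold change, any list gene with an adjusted p under 0.05, and the 2 genes with the profile nearest to each member. The result of 1 marker list is not reported here. Others are named as partners, overlapping genes or marker examples, or are marked as chosen after their values were seen. Depth ran from 23132461 to 33518324 estimated counts, so that for all members but *Cdkn2a* the spread between libraries, and not counting error, limited the precision.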

Additional observations from a re-analysis of the deposited data

How the results depend on the processing

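The number of genes with an adjusted p under 0.01 was 0 in edgeR, 1 with no filter on low counts, 1 at an adjusted p under 0.05, 194 with DESeq2, and 0 to 1 as each library was left out (1 without ApcMin replicate 3). Genes at an unadjusted p under 0.05 numbered 2495, and 1180 to 4117 with 1 library left out (1180 without Apc1322T replicate 2, 1472 without Apc1322T replicate 3, 1649 without ApcMin replicate 3 and 4117 without Apc1322T replicate 1). Of the 10 genes, 3 had an unadjusted p under 0.05, 2 with no filter on low counts, and 1 to 4 with 1 library left out, with 1 left without Apc1322T replicate 2 or without ApcMin replicate 3 and 4 without Apc1322T replicate 1. Of the 120 values of the 10 genes under the alternatives, 116 kept their direction and their side of the threshold, and 4 reversed, all near 0. These were *Cdk6* without Apc1322T replicate 2 (-0.018) or ApcMin replicate 2 (-0.0070), with a range of -0.018 to 0.12 as each library was left out, and *Cdkn1a* without Apc1322T replicate 2 (0.017) or ApcMin replicate 1 (0.075), with a range of -0.19 to 0.075. DESeq2's size factors moved the median of all genes by -0.010.

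No pairing by replicate number was seen. Deviations of same-numbered libraries correlated at -0.014, 0.16 and -0.29, and those of differently numbered libraries at -0.36 to 0.33. With 3 libraries per group this check cannot exclude a batch shared by number. With the replicate number as a block, 2113 genes had an unadjusted p under 0.05 and 0 an adjusted p under 0.01, and 2 of the 10 genes had an unadjusted p under 0.05. *Cdkn2a* rested on 5 to 26 counts per Apc1322T library, and differences in its level below 3 counts (up to 0.130 CPM before TMM scaling) could not be measured.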
